A study of Mus musculus with 6 samples.

Results

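The uncoupling proteins and the brown fat effector genes were described as 10 named members of the 26264 genes listed in each library: Ucp1, Ucp2, Ucp3, Cidea, Elovl3, Dio2, Kcnk3, Otop1, Cpt1b and Plin5. They were chosen by gene symbol, and all 10 were listed in all 6 libraries. The libraries were bulk RNA sequencing of immortalized brown preadipocytes from the stromal vascular fraction of wild-type Bl6N mice, a cell line whose number of source animals is not given in the sources used here. Cells were given FGF8 at 5.5 nM for 48 h or were controls, which the sample labels call untreated and the study's design text calls vehicle-treated, and were then harvested directly (D0) or differentiated. Differentiation comprised 2 days of induction medium followed by differentiation medium, with harvests labelled D3 and D7. D3 included 1 day and D7 included 7 days on differentiation medium, so that the study counts D7 as day 9 after the pretreatment. Each of the 6 conditions held 1 library, so no difference between 2 libraries has a replicate check and none is given a p-value.

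Brown adipocytes make heat by letting protons leak back across the inner mitochondrial membrane through uncoupling protein 1, which fatty acids activate. Adrenergic signalling drives this by releasing fatty acids from lipid droplets and raising transcription of Ucp1 and its partners. Ucp2 and Ucp3 encode related mitochondrial carriers that are not required for this heat production, and Ucp2 is found in many cell types that are not adipocytes.

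The libraries held between 16403254 and 38551551 counts, and the FGF8 library of D3 was the deeper of its pair, at 38031701 against 19468173 counts. Of 11 feedback genes of FGF signalling, 7 were at least 2-fold higher and 1 at least 2-fold lower in the FGF8 library of D0, including Etv4 (21.4-fold higher) and Spry4 (17.6-fold higher). The general adipocyte gene Cidec had 0 counts in both D0 libraries and Fabp4, a fatty acid carrier of adipocytes, had 112 and 139, against at least 15801 and 127665 counts in every D3 and D7 library. The preadipocyte gene Pdgfra was counted in all 6 libraries. Of 9 muscle markers, Myod1, Myf5, Ckm and Myh4 were at 0 in all 6 libraries, whereas Acta1 reached 60 and Mylpf 35 counts. Of 9 macrophage markers, Adgre1, C1qa and C1qb were at 0 in all 6 libraries, whereas Cd14 had 32 to 128, Cd68 27 to 141 and Csf1r 4 to 61 counts. In bulk samples, fewer cells expressing a gene and less of its RNA per cell cannot be told apart.

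Ucp1 lies on chromosome 8 of GRCm39 (84016647 to 84025085, plus strand). The start region is shown because Ucp1 was the member with the largest difference before differentiation. The 83 bases at chr8:84016806-84016888, read on the plus strand, lie between the first exon of an alternative transcript and the next annotated start, outside every GENCODE exon, and end 53 bases before the start of the canonical transcript. The capitals mark TGACG, a short motif within the cAMP response element, the only match there among the 7 motifs searched.
Ucp1 upstream region: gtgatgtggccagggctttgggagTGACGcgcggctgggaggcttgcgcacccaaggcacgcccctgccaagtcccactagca
The same letters, on either strand, occurred in 17.8% of 32851 RefSeq start windows of 250 bases (GRCm38.p6), so the match describes the sequence and no more. Of the 10 members, 6 had such a window (7 windows in all). TGACG was also present upstream of Ucp2 and Dio2, and TATAAA, held by 12.4% of all windows, only upstream of Dio2. GGGCGG (32.7% of all windows) occurred upstream of Ucp2, Otop1 and Plin5. CCAAT (33.8%) and TGANTCA (6.75%) occurred in 1 of the windows of Plin5. CCGGAA (12%) and the direct repeat of the nuclear receptor site (0.0335%) had no match in any member's window, and the window of Ucp3 held none of the 7 motifs. Motifs were searched on both strands. The TGACG matches of Dio2 on the 2 strands overlap each other, and the TGANTCA match of Plin5 reads the same on both strands.

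Ucp1 was the member that differed most between FGF8-treated and untreated preadipocytes, and its difference shrank to 1.09-fold in mature cells. Its normalized counts in the untreated libraries were 0 at D0, 319 at D3 and 91306 at D7, and in the FGF8 libraries 1328, 4287 and 99587. These normalized counts are counts divided by a size factor for each library. The FGF8 library was thus above the untreated library at each time point, by a factor that shrank with differentiation. At D0 the untreated library had 0 of 16403254 counts. With these set to a floor of 3 counts (1.83e-05%), the difference was 301-fold. The 95% exact interval of the untreated share reached 2.25e-05%, above that floor. At D3 it was 13.4-fold (95% exact binomial interval of the count ratio 11.8 to 15.3) and at D7 1.09-fold (1.08 to 1.10). Intervals and floors cover counting error alone and say nothing of how cultures vary.

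The Ucp1 level of FGF8-treated preadipocytes lay between the untreated D3 and D7 libraries. It was 4.16-fold (3.62 to 4.79) above the untreated cells of D3 and 68.8-fold (64.7 to 73.2) below the untreated cells of D7. Scaled by the study's reference genes Tbp, Hsp90ab1 and Gtf2b, these ratios were 1.94 (1.69 to 2.23) and 161 (152 to 172). The reference genes themselves differed between libraries. From D0 to D3, Hsp90ab1 went from 49802 to 27455 normalized counts in untreated and from 78366 to 30693 in FGF8-treated cells. Gtf2b went from 1720 to 808 and from 1858 to 896, and Tbp from 924 to 683 and from 1025 to 671. The part of this in the scaled ratios was not tested. As a share of all counts, Ucp1 made up 0.00574% in the FGF8 library of D0 and 0.334% and 0.355% in the untreated and FGF8 libraries of D7. By counts per kilobase of exon, Ucp1 ranked 1167 of 23897 genes in the FGF8 library of D0 and 4 of 23897 in both D7 libraries. Between D0 and D3, Ucp1 increased 72.5-fold in untreated cells, with the D0 library at the floor of 3 counts. In FGF8-treated cells the increase was 3.23-fold (3.02 to 3.45), or 6.48-fold (6.07 to 6.93) with the reference genes. Between D3 and D7 the ratios were 286-fold (253 to 325) and 23.2-fold (22.6 to 23.8).

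Among Ucp1, Ucp2 and Ucp3, only Ucp2, on chromosome 7 (100142055 to 100151227), had more than 3 counts in untreated preadipocytes. It had 7465, 1926 and 9796 normalized counts at D0, D3 and D7 in untreated cells and 5072, 3332 and 10972 in FGF8-treated cells. Both arms were thus lowest at D3, and the decline from D0 was larger without FGF8. Ucp2 was 1.47-fold lower (1.41 to 1.53) in the FGF8 library at D0, 1.73-fold higher (1.63 to 1.83) at D3 and 1.12-fold higher (1.09 to 1.15) at D7. None of these passed the 2-fold rule. From D0 to D3 it was 3.88-fold lower (3.66 to 4.11) in untreated cells and 1.52-fold lower (1.46 to 1.59) in FGF8-treated cells. The FGF8 value turned to a higher level at D3 (log2 difference 0.40) when libraries were scaled by the reference genes, and the untreated log2 difference went from -1.95 to -1.16. Ucp2 shares 1095 exon bases with Dnajb13 on the opposite strand, which had at most 193 counts in any library.

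Ucp3, which is best known from skeletal muscle and brown fat, lies next to Ucp2 on chromosome 7 (100122136 to 100135976), 6078 bases from it. Its normalized counts were 0, 25.5 and 743 in untreated cells at D0, D3 and D7 and 1.28, 24.6 and 470 in FGF8-treated cells. The D0 values stand for 0 and 1 counts, so a difference there was not detectable at this depth. At D3 the ratio of FGF8 to untreated was 0.965 (0.542 to 1.76). At D7 Ucp3 was 1.58-fold lower (1.43 to 1.75) in the FGF8 library. Ucp3 was therefore the one of Ucp1, Ucp2 and Ucp3 that showed no higher level with FGF8 at D3 or D7. The longest identical run of bases was 17 between the canonical transcripts of Ucp1 and Ucp2 and also 17 between those of Ucp1 and Ucp3, and it was 24 between Ucp2 and Ucp3.

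**Figure D1:**
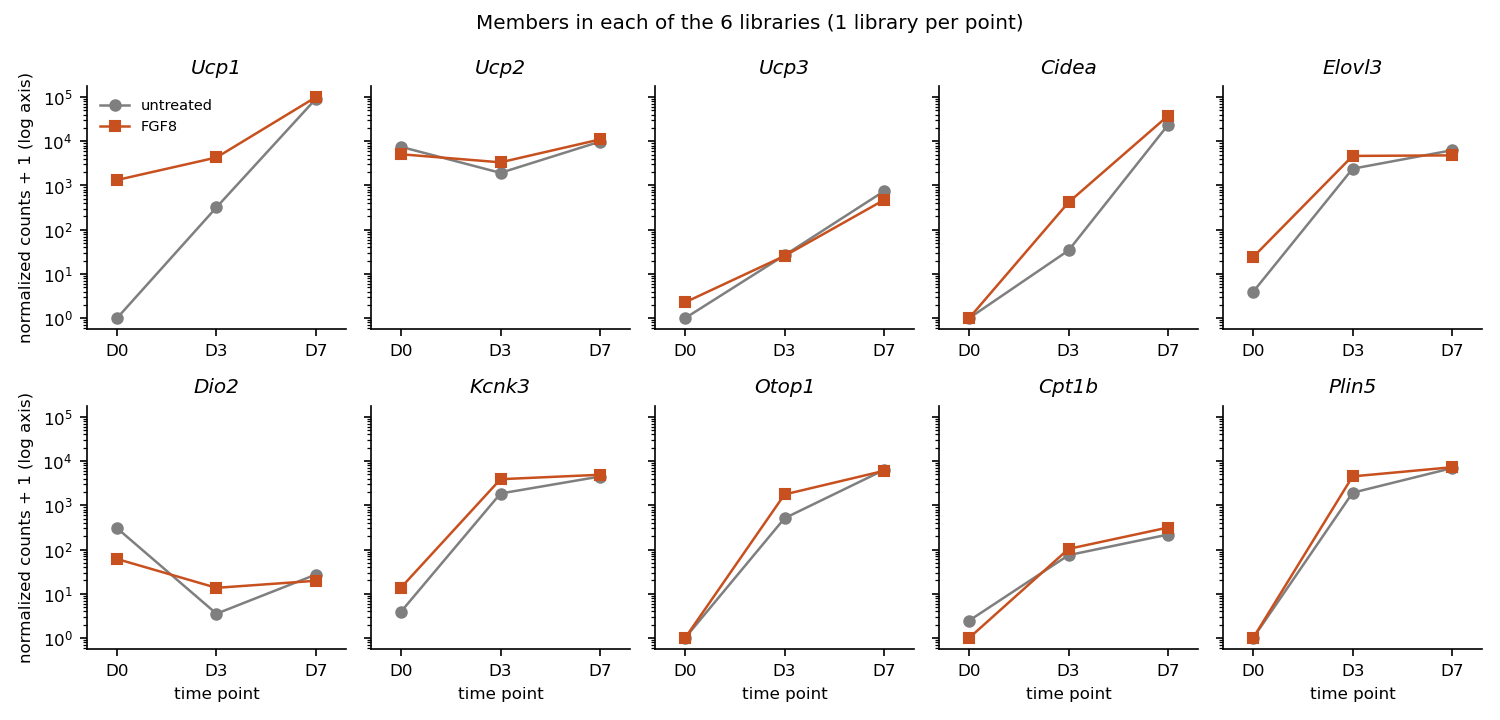
Normalized counts plus 1 (log axis) of the 10 members at D0, D3 and D7 in untreated (grey circles) and FGF8-treated (orange squares) cells, 1 library per point. Ucp1 separates the arms at D0 (0 against 1328 normalized counts), Cidea separates them at D3 (33.1 against 416), and Dio2 was highest in untreated cells at D0 (304).

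When the transcripts of Ucp1, Ucp2 and Ucp3 were summed per kilobase of exon, Ucp2 made up 100% of the sum in untreated preadipocytes. Ucp1 and Ucp2 had nearly equal shares of 49.8% and 50.2% in FGF8-treated preadipocytes. At D3 the Ucp1 share was 38.1% in untreated and 82.8% in FGF8-treated cells. At D7 it was 96.9% and 97.0%, and the Ucp2 share 2.75% and 2.82%. Ucp3 reached its highest share, 1.18%, in untreated cells at D3. The summed level per kilobase was 1016 in untreated and 1375 in FGF8-treated preadipocytes, 432 and 2667 at D3, and 48523 and 52895 at D7. The shares depend on the length used: the exons of all Ucp2 transcripts together span 7345 bases, its longest transcript 4424, and with the longest transcript of each gene the Ucp1 share of FGF8-treated preadipocytes was 40.4%. Without division by length it was 20.7%, and at D3 the Ucp1 share was then 14.1% in untreated and 56.1% in FGF8-treated cells. The FGF8 library had the larger Ucp1 share at D0 and D3 in each case.

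**Figure D2:**
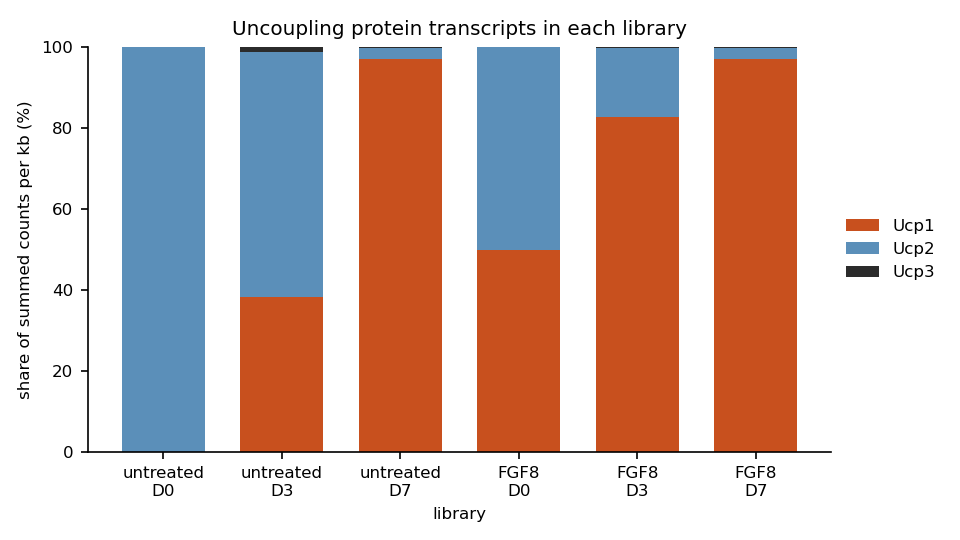
Shares (%) of Ucp1, Ucp2 and Ucp3 in their summed counts per kilobase of exon in each library, 1 stacked bar per library. The Ucp1 share was 0%, 38.1% and 96.9% in untreated cells and 49.8%, 82.8% and 97.0% in FGF8-treated cells at D0, D3 and D7.

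The lipid droplet proteins Cidea and Plin5 were not counted before differentiation, with or without FGF8. Cidea, which promotes lipid transfer between droplets and marks brown and beige adipocytes, lies on chromosome 18 (67476317 to 67501224). Its normalized counts were 0, 33.1 and 23470 in untreated cells at D0, D3 and D7 and 0, 416 and 37734 in FGF8-treated cells. Cidea was 12.6-fold higher (8.48 to 19.4) in the FGF8 library at D3 and 1.61-fold higher (1.59 to 1.63) at D7. Unlike Ucp1, it was thus absent from the counts of both D0 libraries, where the floor of 3 counts equals 4.41 (untreated) and 3.84 (FGF8) normalized counts. The antisense gene B430212C06Rik shares 379 exon bases with Cidea and had 51 and 168 counts at D3. The strand setting of the counting is not given in the sources used here, so reads of the shared bases cannot be assigned.

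Plin5, a droplet coat protein that joins droplets to mitochondria, lies on chromosome 17 (56418446 to 56424610). It had 0, 1922 and 6933 normalized counts in untreated cells and 0, 4501 and 7254 in FGF8-treated cells at D0, D3 and D7. It was 2.34-fold higher (2.21 to 2.48) with FGF8 at D3 and 1.05-fold higher (1.02 to 1.08) at D7.

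Elovl3 and Cpt1b act in fatty acid metabolism. Elovl3, an elongase that lengthens saturated and monounsaturated fatty acids, lies on chromosome 19 (46119917 to 46124133). Its normalized counts were 2.94, 2390 and 6257 in untreated cells and 23.0, 4650 and 4788 in FGF8-treated cells. The D0 values were 2 and 18 counts, a ratio of 7.84 (1.88 to 69.7). At D3 Elovl3 was 1.95-fold higher (1.85 to 2.05) and at D7 1.31-fold lower (1.26 to 1.35) in the FGF8 library. The FGF8-treated cells were thus ahead at D3 and behind at D7. Elovl3 shares 415 exon bases with Pitx3 on the opposite strand, which had at most 37 counts.

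Cpt1b, the muscle-type carnitine palmitoyltransferase that admits fatty acids into mitochondria, lies on chromosome 15 (89300606 to 89310239). Its normalized counts were 1.47, 73.8 and 217 in untreated cells and 0, 102 and 314 in FGF8-treated cells. It was 1.39-fold higher (1.02 to 1.92) with FGF8 at D3 and 1.44-fold higher (1.24 to 1.68) at D7. Cpt1b shares 2744 exon bases with Gm44502 on the same strand, which had at most 1 count in any library, so reads of the shared exons may be missing and its level is uncertain.

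Dio2, the deiodinase that activates thyroid hormone inside brown adipocytes, was highest before differentiation. It lies on chromosome 12 (90691322 to 90705819). Its normalized counts were 304, 2.55 and 26.3 in untreated cells and 60.2, 12.6 and 18.7 in FGF8-treated cells at D0, D3 and D7. The highest value was that of untreated preadipocytes, and no D7 library exceeded 37 counts. Dio2 was 5.05-fold lower (3.67 to 7.09) in the FGF8 library at D0. At D3 it had 18 counts with and 2 without FGF8, a ratio of 4.96 (1.19 to 44.1), and at D7 the ratio of untreated to FGF8 was 1.40 (0.813 to 2.48). In the same 2 libraries of D0, Ucp1 and Dio2 therefore lay on opposite sides.

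Kcnk3 and Otop1 encode ion channels that are enriched in brown fat. Kcnk3, a background potassium channel, lies on chromosome 5 (30745243 to 30783689). It had 2.94, 1847 and 4472 normalized counts in untreated cells and 12.8, 3889 and 4898 in FGF8-treated cells. It was 2.11-fold higher (1.99 to 2.23) with FGF8 at D3 and 1.10-fold higher (1.06 to 1.13) at D7, while at D0 the 2 and 10 counts gave a ratio of 4.36 (0.929 to 40.9). The antisense gene Gm9899 shares 229 exon bases with Kcnk3 and had 348 and 1324 counts at D3.

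Otop1, a proton channel, also lies on chromosome 5 (38433316 to 38461558). Its normalized counts were 0, 509 and 6295 in untreated cells and 0, 1758 and 6013 in FGF8-treated cells. It was 3.45-fold higher (3.11 to 3.85) with FGF8 at D3, and at D7 the ratio of FGF8 to untreated was 0.955 (0.926 to 0.985).

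Within a time point, a gene was counted as changed at 2-fold or more on log2(normalized count + 1), provided that its 2 libraries averaged 20 normalized counts or more. At D0, 3 of the 10 members passed this minimum. Of these, Ucp1 was higher, Dio2 lower and Ucp2 within 2-fold, where 7.27% of 12657 genes were higher and 10.8% lower. At D3, 9 members passed and 5 were higher (Ucp1, Cidea, Kcnk3, Otop1 and Plin5) and 0 lower, where 3.8% of 12892 genes were higher and 12.1% lower. The median log2 difference of these 9 members was 1.07, against 0.08 over all genes. Kcnk3 lay below the 2-fold line, at log2 differences of 0.97 and 0.98, when libraries were scaled by total counts or by the reference genes, which left 4 members higher. At D7 all 10 members passed and 0 were changed in either direction, where 1.12% of 13070 genes were higher and 8.74% lower. The median at D7 was 0.095, against 0.083 over all genes.

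**Figure D3:**
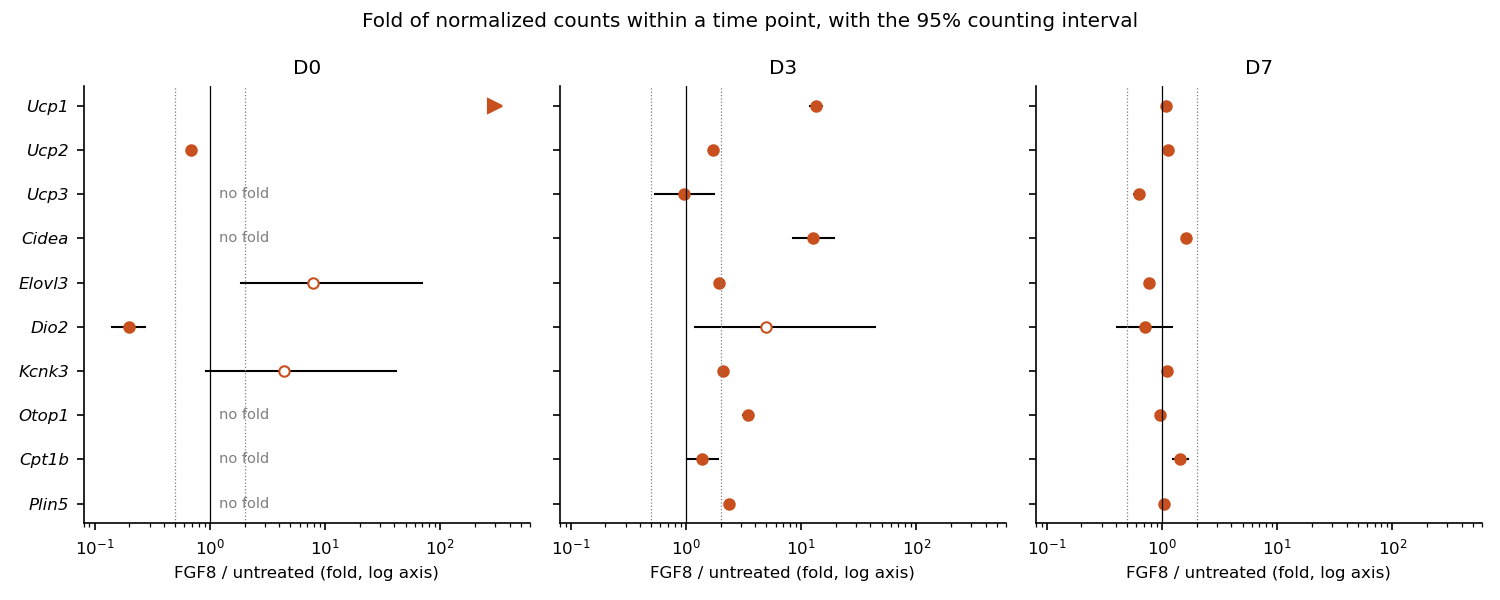
Ratio of normalized counts in the FGF8 to the untreated library (log axis) for each member at D0, D3 and D7. Bars are 95% exact binomial counting intervals. Open circles mark pairs with a mean under 20 normalized counts, and dotted lines mark 2-fold. The triangle marks Ucp1 at D0, with the 0 untreated counts set to the floor of 3. Members labelled "no fold" had at most 3 counts in both libraries. At D3, 5 members with a mean of at least 20 lie beyond the 2-fold line, as does the open circle of Dio2 (18 and 2 counts). At D7 all 10 lie within it, between 1.58-fold lower (Ucp3) and 1.61-fold higher (Cidea).

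Other genes of the adipocyte programme moved at the same time points. At D0 Prdm16, a regulator of brown fat identity, was 4.42-fold higher (2.95 to 6.83) with FGF8, and the coactivator gene Ppargc1a had 12 counts against 33, 3.16-fold lower. These were the only 2 of 10 regulators past 2-fold at D0, where 7.27% of all genes were higher and 10.8% lower. Lpl, which releases fatty acids from circulating lipoproteins, was 4.07-fold lower at D0, whereas Dgat2, an enzyme of triglyceride synthesis, was 2.88-fold higher. At D3, 3.8% of all genes were at least 2-fold higher and 12.1% lower. Of 11 brown fat regulators, 4 were higher and 0 lower (median 0.82), including the nuclear receptor genes Esrrg (3.45-fold) and Ppara (2.96-fold). Of 13 fatty acid oxidation genes, 3 were higher and 1 lower (median 0.86), with Acadm, an acyl-CoA dehydrogenase gene, 2.13-fold higher and Cpt1c 2.54-fold lower. Of 7 related mitochondrial carriers, 2 were higher and 0 lower (median 0.60), namely Slc25a34 (2.48-fold) and the carnitine carrier Slc25a20 (2.11-fold). Of 10 adrenergic and lipolysis genes, 2 were higher and 0 lower (median 0.72), namely the lipase inhibitor gene G0s2 (2.11-fold) and the receptor gene Adrb1 (2.12-fold).

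General adipocyte and preadipocyte genes moved together with the members at D3. The summed level of 14 adipocyte genes at D3 was 624275 normalized counts in untreated and 1196977 in FGF8-treated cells, a ratio of 1.92, and 3 of the 14 were at least 2-fold higher and 0 lower (median 0.77). At D7 the sums were 1249884 and 1289837, a ratio of 1.03, and 0 of the 14 were changed. The 8 preadipocyte markers summed to 133133 and 34240 normalized counts at D0, 39318 and 10726 at D3, and 31047 and 7148 at D7, lower with FGF8 each time. Pdgfra gave 68261 of the 133133 at D0. At D0, 5 of the 8 were at least 2-fold lower and 1, Pi16, was at least 2-fold higher (69.0 and 542 normalized counts in untreated and FGF8-treated cells), while Thy1 had 2773 and 4427. At D3 and again at D7, 6 of 6 with enough counts were at least 2-fold lower. The part of these differences in the member values was not tested. At D0, by contrast, the adipocyte genes summed to 31855 and 20489 normalized counts, lower in the FGF8 library in which Ucp1 was counted. Scd1 (14088 and 11887), Fasn (8267 and 5347) and Lpl (8251 and 2025) gave most of both sums. Fabp4 (165 and 178) and Dgat2 (125 and 360) were higher with FGF8. Of 9 adipocyte genes with enough counts at D0, 1 was at least 2-fold higher and 2 lower, where 7.27% and 10.8% of all genes were. Markers of other cell types also differed between the arms. The 9 macrophage markers summed to 313 and 187 normalized counts in untreated and FGF8-treated cells at D0, 251 and 143 at D3, and 231 and 138 at D7. The 6 endothelial markers summed to 1630 and 72 at D0, 213 and 34 at D3, and 200 and 36 at D7, and the receptor gene Kdr alone had 1288 and 7.68 at D0. Both sums were thus lower with FGF8 at each time point, but not every marker was. Kdr and Tek (326 and 42.2) gave most of the endothelial sum at D0. Pecam1 (1.47 and 12.8) and Cdh5 (4.41 and 8.96) were higher with FGF8 there, from at most 10 counts. Cd14 (188 and 127) gave most of the macrophage sum at D0, where Mrc1 was higher with FGF8 (7.34 and 16.6). Cd68 had 81.5 and 91.3 at D3 and 100 and 101 at D7. The 9 muscle markers summed to between 26 and 81 in all 6 libraries. The part of these lists in the member values was not tested.

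At D3 most members stood at a higher percentage of their D7 level in FGF8-treated than in untreated cells. Expressed as a percentage of the same arm's D7 level, Elovl3 was at 38.2% (36.3 to 40.2) in untreated and 97.1% (93.8 to 101) in FGF8-treated cells at D3. Its D7 level was itself lower with FGF8, at 4788 against 6257 normalized counts. Kcnk3 was at 41.3% and 79.4%, Plin5 at 27.7% and 62.0%, and Otop1 at 8.09% and 29.2%. Ucp2 was at 19.7% and 30.4% at D3, but at 76.2% and 46.2% at D0, so it moved away from its D7 level by D3 in both arms. Unlike Elovl3, Kcnk3 and Plin5, the genes Ucp1, Cidea and Ucp3 made nearly all of their increase after D3 in both arms. Ucp1 was at 0.350% and 4.30% of its D7 level, Cidea at 0.141% and 1.10%, and Ucp3 at 3.43% and 5.23%. For Ucp3 and for Cpt1b (34.0% and 32.7%) the counting intervals of the arms overlapped. Dio2 was at 1158% of its D7 level in untreated and 322% in FGF8-treated cells at D0.

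**Figure D4:**
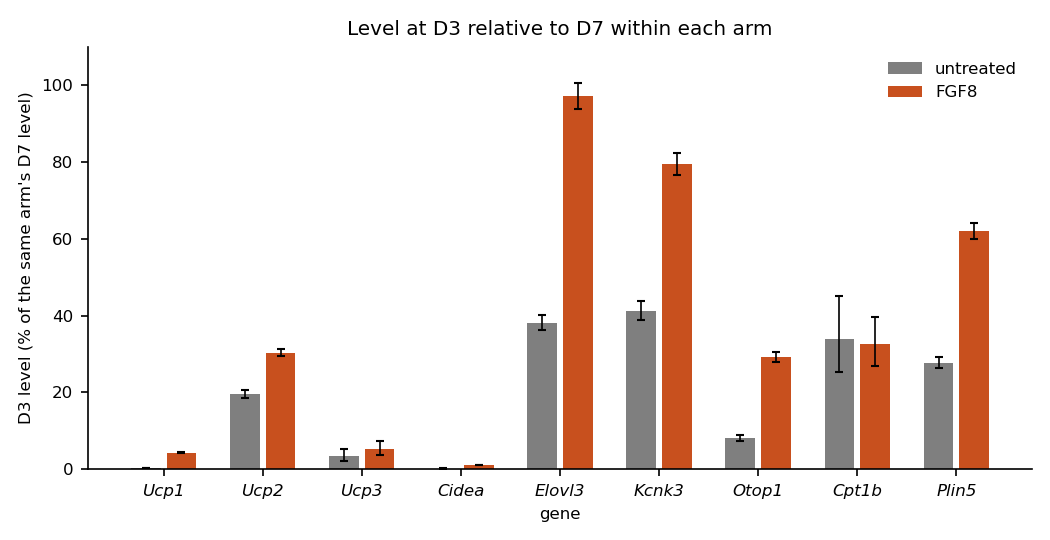
Level at D3 as a percentage of the D7 level of the same arm for 9 members (Dio2 left out), in untreated (grey) and FGF8-treated (orange) cells, with 95% exact binomial counting intervals and 1 library per arm and time point. Elovl3 was at 38.2% and 97.1%, Kcnk3 at 41.3% and 79.4%, whereas Ucp1 (0.350% and 4.30%), Ucp3 (3.43% and 5.23%) and Cidea (0.141% and 1.10%) stayed near the axis.

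Between the time points of each arm, most members were at least 2-fold higher at the later one. From D0 to D3 in untreated cells, 8 members passed the minimum, with 6 at least 2-fold higher and 2 lower (Ucp2 and Dio2), where 19.5% of all genes tested were higher and 15.5% lower. In FGF8-treated cells 9 passed, with 7 higher and 1 lower (Dio2), where 24.1% of genes were higher and 22% lower. From D3 to D7, 9 members passed in untreated cells and all 9 were higher, where 8.77% of genes were higher and 4.42% lower. In FGF8-treated cells 9 passed and 6 were higher, where 8.16% of genes were higher and 5.4% lower. Elovl3, Kcnk3 and Plin5 stayed within 2-fold there, at 1.03-fold (0.994 to 1.07), 1.26-fold (1.21 to 1.31) and 1.61-fold (1.56 to 1.66). The 1.03-fold value of Elovl3 turned to a log2 difference of -0.029 with scaling by total counts.

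A test was possible only for effects common to several libraries, with the time points or the treatments standing in for replicates (edgeR's quasi-likelihood test, Benjamini-Hochberg adjustment over 13868 genes). For D3 against D0 over both treatments it called 7 members as higher and 2 as lower, where 26.4% of genes were called higher and 19.5% lower. Kcnk3 had the smallest adjusted p (log2 difference 8.48, standard error 0.469, adjusted p = 0.00238 in edgeR, higher in 2 of 2 arms). Plin5 (adjusted p = 0.00341), Elovl3 (0.00364), Cpt1b (0.00503), Otop1 (0.00578), Ucp3 (0.00898) and Cidea (0.0205) also rose. Ucp2 fell by 1.25 on the log2 scale (edgeR adjusted p = 0.0382), and Dio2 fell by 4.06 (edgeR adjusted p = 0.0337). The call of Ucp2 was lost without either D3 or either D7 library, that of Dio2 without the untreated library of D3 or either D7 library, and that of Ucp3 without the FGF8 library of D3. The highest adjusted p of edgeR among these fits was 0.195 for Ucp2, 0.112 for Dio2 and 0.0637 for Ucp3. Ucp1 was not called (log2 difference 2.43, standard error 1.70, adjusted p = 0.285 in edgeR), and was called only without the FGF8 library of D0 (adjusted p = 0.00988). Its arms differed in this step, as its D0 level was 0 in untreated cells and 1328 normalized counts in FGF8-treated cells.

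For D7 against D3, edgeR called 0 of the 10 members, with 8 at an unadjusted p under 0.05, all 10 with a positive difference, and adjusted p-values from 0.0616 (Ucp3) to 0.522 (Dio2). In all genes, 0.0577% were called higher and 0.00721% lower, and 2969 of 13868 were at an unadjusted p under 0.05. DESeq2's Wald test called 6 members in this step, where it called 1315 of 13868 genes. For the effect of FGF8 shared by the 3 time points, edgeR called 0 of the 10 members and 0 were at an unadjusted p under 0.05, with adjusted p-values from 0.237 (Kcnk3) to 0.842 (Ucp2). The same test called 0.0144% of genes as higher and 1.08% as lower, and 3273 of 13868 genes were at an unadjusted p under 0.05. The direction was positive for 8 of 10 members, the exceptions being Dio2 and Ucp3. The share of positive differences over all genes was not counted for either test. Ucp1 had a log2 difference of 3.47 with a standard error of 1.71 (adjusted p = 0.286 in edgeR, higher in 3 of 3 pairs). DESeq2's Wald test also called 0 members, where it called 1655 of 13868 genes. An effect confined to 1 or 2 time points counts as error in this test, so these p-values do not show that members were alike at D0 or D3.

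Over the 6 libraries, the members differed in how closely they followed Ucp1. Pearson's r of log2(normalized count + 1) with Ucp1 was highest for Ucp3 (0.87) and Cidea (0.84), was 0.29 for Ucp2, and was negative for Dio2 (-0.52). These are descriptions over 6 libraries that share their time points. Of 11380 genes averaging 100 normalized counts or more, the 5 most like Ucp1 were Ppp4r2 (0.989), Hspb6 (0.986), Ube2m (0.982), 2810414N06Rik (0.981) and A430005L14Rik (0.980). Ppp4r2, a regulatory subunit of a protein phosphatase, had 1397, 1931 and 2293 normalized counts in untreated cells and 1993, 2085 and 2366 in FGF8-treated cells. Its order over the libraries was that of Ucp1, although its highest and lowest levels lay close together. Hspb6, a small heat shock protein, ranged from 347 normalized counts in untreated preadipocytes to 2040 in FGF8-treated cells at D7.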

How the data were processed

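The authors trimmed reads with Trim Galore, aligned them to GRCm39 (mm39) with HISAT2, and summarized them by gene with featureCounts. The deposited values are these raw counts, 1 table per library. Tool versions, annotation and strand setting are not given in the sources used here. Libraries were grouped by the treatment and time in their labels. The growth protocol there describes white preadipocytes, whereas titles and cell type name brown ones. The members, the gene lists and the tests were chosen with earlier results of these data known.

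Normalized counts used size factors by the median-of-ratios method (DESeq2 1.42.0). Ratios have a 95% Clopper-Pearson interval of the 2 counts; 0 counts were set to a floor of 3 counts per library, and no fold is given when both libraries are at or under it. Shared effects were tested with edgeR 4.0.16 (TMM, filterByExpr, additive model of time point and treatment, 2-sided, adjusted p under 0.05). On counts simulated with the same 4-fold effect at each time point, the FGF8 test recovered 199 of 199 changed genes with 8 false calls among 13918. Its variation between libraries was a set value, not one taken from these data. On counts simulated with 4-fold changes and counting error alone, the 2-fold rule at D0 recovered 200 of 200 with 22 false calls among 12665. Neither setting held effects that differ between time points, so they do not show how the rules perform on these data. Coordinates and exon lengths are from GENCODE M39 (23897 symbols, 91% of those listed). Start windows are from RefSeq.

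All 10 members are named. The result of 1 gene outside the members is not reported here. From each other list the rule names the 2 largest differences at D0 and at D3, and for Ucp1 the 5 most correlated genes. Cidec, Fasn, Pdgfra, Pi16, Thy1, Cd14, Cd68, Mrc1, Pecam1 and Cdh5 were named after their values were seen. The same holds for the muscle and macrophage genes at 0 and the genes under Other observations. The alternatives were TMM, total counts or the reference genes as scaling, pseudocounts of 0.5 and 5, other minimums (none, 100), 1.5-fold and 4-fold rules, DESeq2's test, DESeq2 size factors in edgeR, no block, leaving out libraries, and other gene lengths. Python 3.11.15, scipy 1.17.1, pandas 2.3.3 and R 4.3.3 were used.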

Additional observations from a re-analysis of the deposited data

Results flagged for a closer look

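For 4 members the ratio of FGF8 to untreated was above 1 at some time points and below 1 at others, with counting intervals that excluded 1. The differences between time points were not tested, because each condition is 1 library. Dio2 had a log2 ratio of -2.34 at D0 and 2.31 at D3, the latter from 18 and 2 counts. Ucp2 had log2 ratios of -0.56 at D0, 0.79 at D3 and 0.16 at D7. Elovl3 had 2.97 at D0 (18 and 2 counts), 0.96 at D3 and -0.39 at D7. Otop1 had 1.79 at D3 and -0.066 at D7.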

How the results depend on the processing

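The counts of changed members kept their size, within 1.5 times, under all 3 other scalings and both pseudocounts. They moved to 6 at D0 with no minimum, to 2 at D3 and, from D3 to D7, to 5 (untreated) and 3 (FGF8) with a 4-fold rule, and to 2 at D7 with a 1.5-fold rule. The reference genes themselves differed between libraries, as given above. Scaling by the reference genes shifted the median of all genes from D0 to D3 to 0.79 (untreated) and 0.99 (FGF8) on the log2 scale. At D0 between treatments it shifted the median to -0.25, with 78.3% in place of 59.8% of the changed genes lower. It put the changed genes from D0 to D3 at 12.1% lower in untreated and 14.9% in FGF8-treated cells, in place of 44.2% and 47.8%. From D3 to D7, 46.2% in place of 33.5% were lower in untreated cells with total counts, and 26.6% in place of 39.8% in FGF8-treated cells with the reference genes. The genes called for the FGF8 effect shared by the time points numbered 152, against 1655 with DESeq2, 419 with no filter, 0 without the block (575 at an unadjusted p under 0.05) and 0 to 2230 with 1 time point left out (2230 without D0; 0 without D3 or D7, with 1510 and 1868 unadjusted). For D3 against D0 they numbered 6355, against 4177 without the block and 1136 to 8024 with 1 library left out, lowest without the FGF8 library of D3 and at 2901 without the untreated one. For D7 against D3 they numbered 9, against 1315 with DESeq2, 268 with no filter, 0 without the block (1581 unadjusted) and 0 to 2992 with 1 library left out, where both high values came without a D0 library and the 4 values of 0 without a D3 or D7 library (1038 to 1649 unadjusted). The cause of these changes was not tested, beyond the fewer libraries in each fit. The Ucp1 share at D3 was 29.7% (untreated) and 76.8% (FGF8) with longest transcripts and 14.1% and 56.1% without length, at D7 95.7% in both arms and 89.7% in both, and in FGF8-treated cells at D0 40.4% and 20.7%. The time point was the block of the FGF8 test. No paired analysis by replicate number was possible because each condition holds 1 library and the labels number no replicates. Low counts limit Dio2 at D3 and D7, Ucp3 at D0 and D3, and Cpt1b, Cidea, Elovl3, Kcnk3, Otop1 and Plin5 at D0.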

Other observations

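Adrenergic receptor genes upstream of the members differed between the time points in both arms. Adrb3, the main adrenergic receptor of mouse adipocytes, had 0 counts in both D0 libraries and 1495, 1346 (untreated D3, D7), 2146 and 1246 (FGF8 D3, D7) normalized counts later. Adrb1 had 2 and 3 counts at D0 and reached 442 normalized counts in untreated and 790 in FGF8-treated cells at D7. Zic1, a transcription factor of the brown lineage, had 150 and 136 normalized counts at D0 and at most 3 counts in any later library.

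Among genes of heat production without uncoupling protein 1, Ckmt2 had at most 1 count and Ryr2 at most 4 counts in any library. Alpl, a phosphatase of the creatine cycle, had 42.6, 256 and 3267 normalized counts in untreated and 47.4, 571 and 2510 in FGF8-treated cells at D0, D3 and D7. Of 7 such genes with enough counts, 0 were at least 2-fold higher and 2 lower (Ckb and Gamt) with FGF8 at D0. Over all genes there, 7.27% were higher and 10.8% lower. At D3, 1 of 7 was higher (Alpl) and 1 lower (Slc6a8), where 3.8% of all genes were higher and 12.1% lower.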
